A study of Mus musculus with 24 samples.

Results

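Cxcl9, Cxcl10 and Cxcl11 are the chemokines that bind the receptor Cxcr3, and the transcripts of these 3 ligands and of the receptor were followed in the terminal ileum of mice given a macrolide antibiotic early in life. The 4 genes are rows of an immune gene panel of 547 genes. They were chosen by their measured values, since Cxcl9 was lower and Cxcl11 higher after antibiotic, so the differences of these 4 genes from Control are given as a description with no test. Other measures, namely the difference between the antibiotic groups, the sexes and the covariation of the members within a group, were not used in the choice and were tested.

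The panel, a NanoString nCounter GX mouse immunology code set that counts RNA molecules with paired probes and no amplification, was read in 24 C57BL/6 mice at week 7 of life, 1 sample a mouse. Control mice (n = 7, 4 male and 3 female) received non-acidified water. PAT1 mice (pulsed antibiotic treatment, n = 7, 4 male and 3 female) had 1 course of tylosin, given in the water of the nursing dam from day 5 of life for 5 days, and PAT3 mice (n = 10, 4 male and 6 female) had this course and additional ones at days 27 and 36, each for 3 days. The study's own group sizes for PAT1 and PAT3 differ from those of the labels, which are followed here, so a mouse labelled PAT3 may belong to PAT1. Whole litters were assigned to a treatment and the mice were weaned by sex and treatment, so litter, cage and treatment cannot be told apart, and the samples of a group may not be independent. Totals ran from 171671 to 782392 counts a sample, with the lowest in PAT1. The mean of the sample medians was lower than in Control by 0.14 (log2) in PAT1 and by 0.19 in PAT3. The median difference of all genes, taken gene by gene, was 0.0099 and 0.033, so the table as a whole was not lower. Re-centring on the sample median raises every difference from Control by the same 0.14 and 0.19. The re-centred values are given below as an alternative scaling.

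Cxcr3 is a G protein-coupled receptor carried mainly by activated type 1 helper T cells, cytotoxic T cells and natural killer cells, and its ligands draw these cells into inflamed tissue. All 3 ligands are induced by interferons. Cxcl9 depends largely on interferon gamma, whereas Cxcl10 also responds to type I interferon and to NF-kB. In the gut they are made by macrophages, dendritic cells, stromal cells and epithelium. The ligand genes lie in a cluster on mouse chromosome 5, in the order Cxcl9, Art3, Cxcl10 and Cxcl11 in RefSeq's annotation of GRCm38.p6, while Cxcr3 is on the X chromosome. That assembly, of the strain C57BL/6J, classes Cxcl11 as a transcribed pseudogene with no protein, so that a change in its transcript level in these mice is a change in an RNA that RefSeq does not list as coding.

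The RefSeq promoters of Cxcl9 and Cxcl10, 250 bases before to 50 after the start site and read on the minus strand, are shown because these neighbouring genes were lower together after antibiotic. The promoter of Cxcl11 was not analysed here, as the table has no entry for it. Capitals mark motif matches.
Cxcl9, chr5:92328030-92328329: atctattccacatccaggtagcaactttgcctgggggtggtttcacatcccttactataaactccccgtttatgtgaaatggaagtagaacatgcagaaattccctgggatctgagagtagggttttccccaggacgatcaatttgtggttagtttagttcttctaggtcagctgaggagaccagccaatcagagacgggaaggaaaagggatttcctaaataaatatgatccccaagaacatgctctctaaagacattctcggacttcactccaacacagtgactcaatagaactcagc
Cxcl10, chr5:92348840-92349139: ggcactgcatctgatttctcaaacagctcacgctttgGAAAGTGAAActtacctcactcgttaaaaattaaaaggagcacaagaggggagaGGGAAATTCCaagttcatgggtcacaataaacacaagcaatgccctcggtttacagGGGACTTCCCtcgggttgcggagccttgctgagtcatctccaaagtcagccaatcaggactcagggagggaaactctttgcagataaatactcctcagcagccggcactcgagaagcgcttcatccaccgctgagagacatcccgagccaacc
Both strands were searched for the core of the interferon-stimulated response element (GAAA, any 2 bases, GAAA), the gamma-activated site (TTCNNNGAA) and the NF-kB consensus. The Cxcl10 promoter held 1 response element core, GAAAGTGAAA, at positions -213 to -204 from the start site, and 2 NF-kB matches, GGGAAATTCC at -159 to -150 and GGGACTTCCC at -103 to -94. The same window of Cxcl9 held none of these letter patterns, nor did that of Cxcr3. Of 32851 promoters of this length in the table, 3.44% held the response element core, 8.30% the gamma-activated site and 4.51% the NF-kB consensus. These matches describe the letters of a window and say nothing of binding in these mice.

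Cxcl9, the ligand most dependent on interferon gamma, was lower in both antibiotic groups than in Control, by 2.53-fold in PAT1 and 3.86-fold in PAT3. Its log2 normalized count in Control had a lowest value of 8.02, a median of 8.63 and a highest value of 9.11. In PAT1 these values were 6.48, 7.09 and 8.50, and in PAT3 they were 5.94, 6.63 and 7.08. All 10 PAT3 mice were below every Control mouse, whereas PAT1 replicate 2, a male, lay within the Control range at 8.50. The group means were 8.50 ± 0.42 (SD, n = 7) for Control, 7.16 ± 0.71 (SD, n = 7) for PAT1 and 6.56 ± 0.45 (SD, n = 10) for PAT3. The difference from Control was -1.34 (SE 0.27) in PAT1 and -1.95 (SE 0.25) in PAT3 on the log2 scale, and -1.20 and -1.76 after each sample was re-centred on its median gene. The median Control mouse gave 341 Cxcl9 counts, against 93 after 1 course and 89.5 after 3, so that counting error alone was 5.42%, 10.4% and 10.6% of the value.

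Cxcl10, the second interferon-induced ligand, was lower as well, by 1.72-fold in PAT1 and 1.95-fold in PAT3. Control values had a lowest value of 6.49, a median of 6.90 and a highest value of 7.60, against 5.67, 6.21 and 6.85 in PAT1. In PAT3 they were 5.84, 6.01 and 6.44, a narrow range that lay wholly below that of Control. The means were 6.99 ± 0.46 (SD, n = 7), 6.21 ± 0.45 (SD, n = 7) and 6.03 ± 0.17 (SD, n = 10), which gave differences from Control of -0.78 (SE 0.20) and -0.96 (SE 0.18), or -0.64 and -0.77 after re-centring. Median counts were 130, 77 and 75.5.

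Cxcl11 stood the other way. It was 2.30-fold higher in PAT1 and 2.38-fold higher in PAT3 than in Control. Control mice had a lowest value of 4.08, a median of 4.56 and a highest value of 5.46 on the log2 scale. PAT1 mice had 5.40, 5.90 and 6.19, and PAT3 mice 5.39, 5.89 and 6.42. Control replicate 7, a female, reached 5.46 and exceeded the lowest mouse of each antibiotic group, so neither pair of groups was fully apart. The means were 4.66 ± 0.49 (SD, n = 7), 5.86 ± 0.29 (SD, n = 7) and 5.90 ± 0.30 (SD, n = 10), with differences from Control of 1.20 (SE 0.19) and 1.25 (SE 0.18), or 1.35 and 1.44 after re-centring. Few molecules were counted for this transcript, with medians of 30, 60 and 62.5 in the 3 groups, and the lowest Control sample had 14 counts. Counting error was 18.3% of the value at the Control median.

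Cxcr3, the receptor, overlapped in all 3 groups. It had a lowest value of 4.30, a median of 5.06 and a highest value of 5.29 in Control, and 4.37, 5.07 and 5.61 in PAT1. In PAT3 the values were 3.36, 4.69 and 5.17. The PAT3 minimum came from replicate 8 with 12 counts. The means were 4.97 ± 0.35 (SD, n = 7), 5.02 ± 0.40 (SD, n = 7) and 4.53 ± 0.54 (SD, n = 10). The difference from Control was 0.046 (SE 0.24) in PAT1, a value whose sign was not settled, since it ran from -0.22 to 0.21 over 34 other settings. In PAT3 it was -0.44 (SE 0.22), or -0.25 after re-centring and -0.18 after quantile normalization. Median counts were 38, 34 and 27. In a piece of tissue, fewer cells of a type and less RNA per cell cannot be told apart for any of these transcripts.

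**Figure D1:**
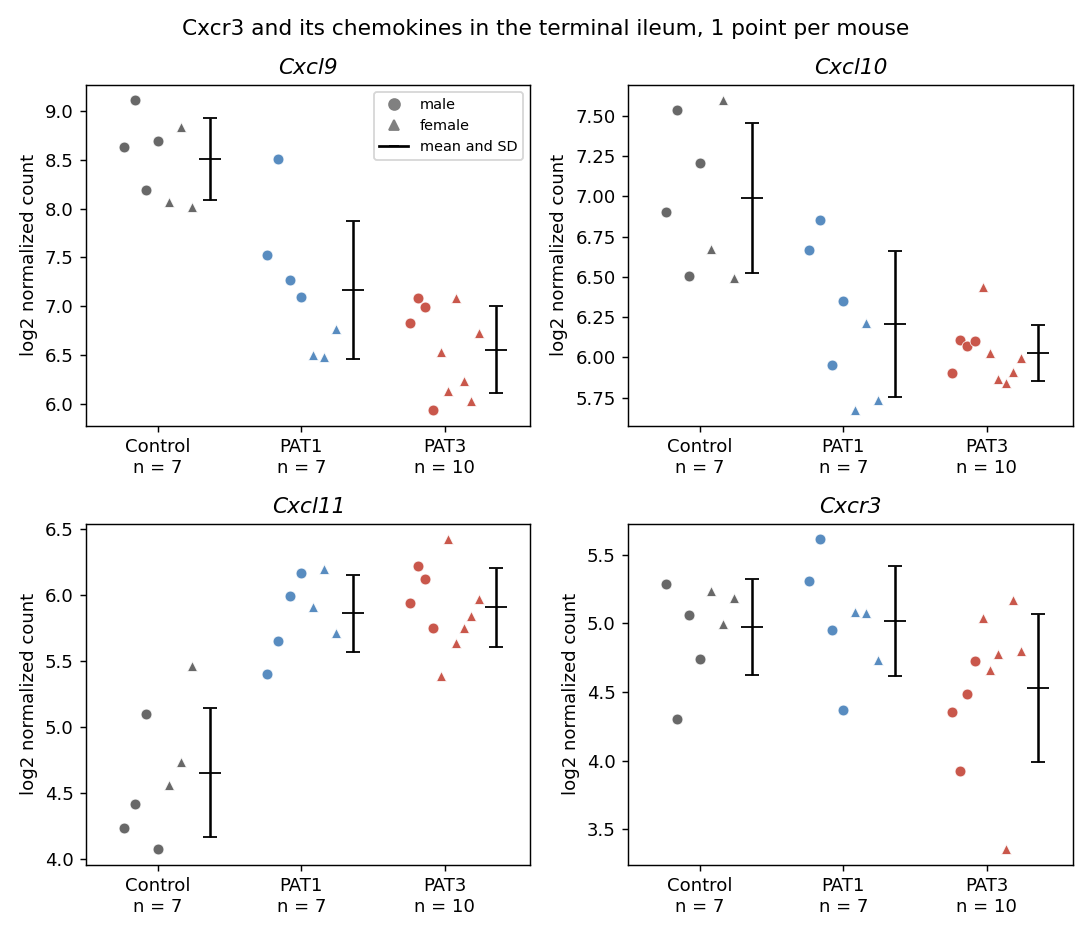
Log2 normalized count (y axis) of Cxcl9, Cxcl10, Cxcl11 and Cxcr3 in each mouse of Control (n = 7), PAT1 (n = 7) and PAT3 (n = 10), with males as circles, females as triangles and the mean with SD in black. Cxcl9 and Cxcl10 in PAT3 lay below all Control mice, Cxcl11 was higher in both antibiotic groups with 1 Control mouse at 5.46 in their range, and Cxcr3 overlapped in all 3 groups.

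In PAT3, 2 of the 4 members, Cxcl9 and Cxcl10, had no value in common with the range of Control, where 9.32% of all 547 genes were fully apart. In PAT1 it was 0 of 4, beside 6.22% of all genes. The members were selected on this contrast, and nothing is read from these shares.

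A difference between ligands within a mouse does not depend on how the sample was scaled, because the size factor cancels. Cxcl11 minus Cxcl9 had a mean of -3.85 ± 0.82 (SD, n = 7) for Control, which stood at -1.30 ± 0.89 (SD, n = 7) after 1 course and at -0.65 ± 0.51 (SD, n = 10) after 3 on the log2 scale. It ran from -4.69 to -2.55 in Control and from -1.45 to 0.29 in PAT3, with no overlap. PAT1 ran from -2.85 to -0.29, and only replicate 2 at -2.85 fell within the Control range. Probes differ in efficiency, so the sign of such a difference does not say which transcript was more abundant, but a constant efficiency cancels in its change between groups. Background counts would not cancel. They were not subtracted here, and Cxcl11 had only 14 to 46 counts in Control. The change from Control was 2.55 in PAT1 and 3.20 in PAT3.

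The other differences moved as well, again as a description of genes chosen by these values. Cxcl11 minus Cxcl10 had means of -2.33 ± 0.84, -0.35 ± 0.62 and -0.12 ± 0.38 (SD, n = 7, 7 and 10). Cxcl10 minus Cxcl9 was tightly held among Control mice at -1.52 ± 0.17 (SD, n = 7). PAT1 mice had -0.96 ± 0.44 (SD, n = 7) and PAT3 mice -0.53 ± 0.48 (SD, n = 10). Cxcl9 was thus further below Control than Cxcl10 was, by 0.56 in PAT1 and 0.99 in PAT3.

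**Figure D2:**
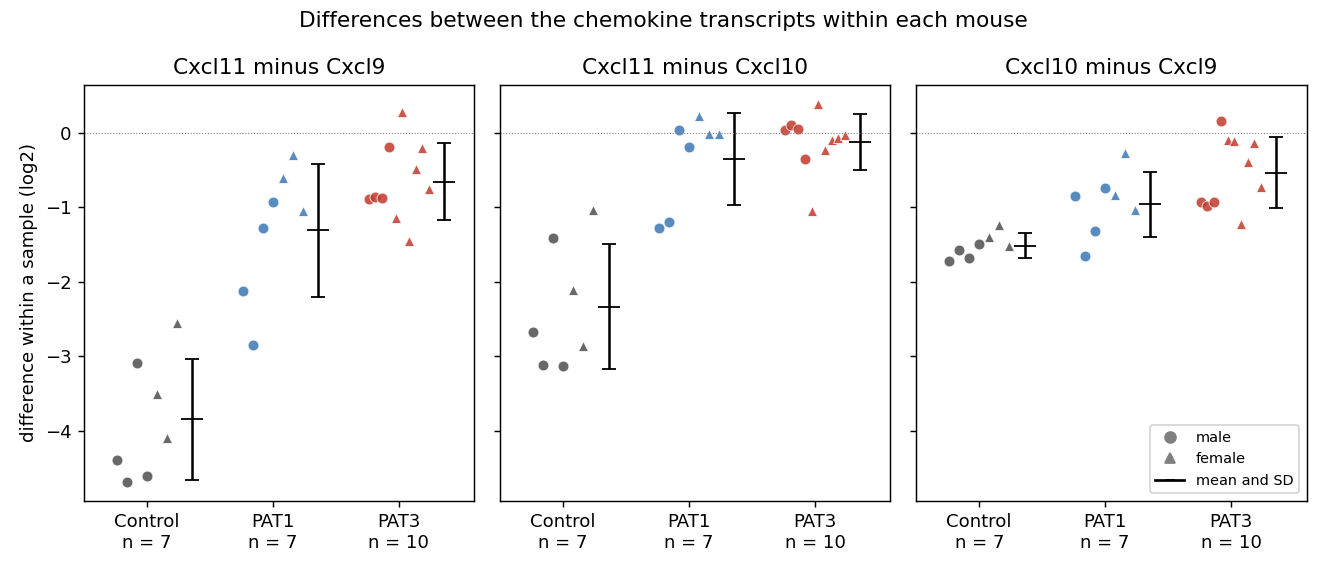
Difference between the log2 values of 2 chemokines within each mouse (y axis, log2) for the 3 pairs of ligands, by group, with males as circles, females as triangles and the mean with SD in black. Cxcl11 minus Cxcl9 had a mean of -3.85 in Control, -1.30 in PAT1 and -0.65 in PAT3, and the Control mice were closely grouped for Cxcl10 minus Cxcl9.

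PAT3 was tested against PAT1, a contrast the choice of genes did not use. The last course of PAT3 mice ended nearer to sampling than that of PAT1 mice. Number of courses, age at exposure and time since antibiotic therefore cannot be told apart in it. The uncertain labels of PAT1 and PAT3, given above, also bear on this contrast. None of the 4 members passed an adjusted p of 0.05 by limma over all 547 genes, a threshold that 4.2% of the panel passed, and none passed by voom or by the methods' analysis of variance with Tukey's comparison. At an unadjusted limma p under 0.05 there were 2 of 4, Cxcl9 (p = 0.0222) and Cxcr3 (p = 0.0335), where 28.5% of all genes were under it. No single mouse left out brought a member past the adjusted threshold. Cxcl9 differed by -0.61 (SE 0.25, 95% interval -1.12 to -0.094, adjusted p = 0.111). Leaving out PAT1 replicate 2 took the difference to -0.38, and it was -0.89 among males and -0.13 among females. Cxcl10 differed by -0.18 (SE 0.18, 95% interval -0.55 to 0.19, adjusted p = 0.536). Cxcl11 differed by 0.044 (SE 0.18, 95% interval -0.32 to 0.41, adjusted p = 0.912). Cxcr3 differed by -0.49 (SE 0.22, 95% interval -0.94 to -0.041, adjusted p = 0.136), with 8 of 10 PAT3 mice below the PAT1 mean. In the order of levels, from high to low, Control, PAT1 and PAT3 for Cxcl9 and Cxcl10, the reverse for Cxcl11, and PAT1, Control and PAT3 for Cxcr3, the values for PAT1 and PAT3 therefore did not differ past the threshold.

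**Figure D3:**
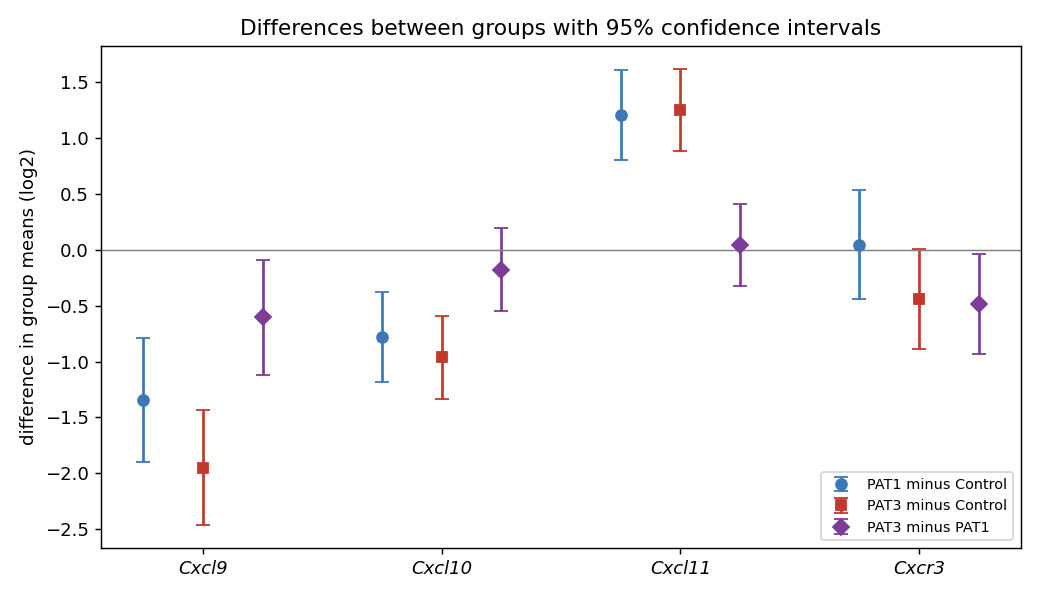
Difference between group means (y axis, log2) for each member, with the 95% confidence interval from the limma fit, for PAT1 minus Control (circles), PAT3 minus Control (squares) and PAT3 minus PAT1 (diamonds). Cxcl9 and Cxcl10 lay below 0 and Cxcl11 above 0 against Control, and PAT3 minus PAT1 was 0.044 for Cxcl11 and -0.61 for Cxcl9. The genes were chosen on their differences from Control, so the intervals of the contrasts with Control are a description and no test.

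No member differed between the sexes past the threshold, which 0.366% of all genes passed in a limma fit with treatment as a covariate. Cxcl9 differed by -0.50 (female minus male, SE 0.19, adjusted p = 0.300), the 1 member of 4 with an unadjusted limma p under 0.05 (p = 0.0126), beside 11.7% of all genes. Its mean was 8.65 in 4 male and 8.31 in 3 female Control mice, 7.60 in 4 male and 6.59 in 3 female PAT1 mice, and 6.71 in 4 male and 6.46 in 6 female PAT3 mice. Cxcl10 differed by -0.22 (SE 0.15, adjusted p = 0.670), Cxcl11 by 0.10 (SE 0.15, adjusted p = 0.859) and Cxcr3 by 0.16 (SE 0.18, adjusted p = 0.832). An effect of antibiotic that depended on sex, tested by limma's F over both interaction terms, was likewise not called for any member, with an adjusted p of 0.473 for Cxcl9, 0.552 for Cxcl10, 0.477 for Cxcl11 and 0.825 for Cxcr3, where 0.183% of all genes passed, and 0 of 4 had an unadjusted p under 0.05, beside 18.3% of all genes. As a description of genes chosen on these differences, within each sex the 3 ligands kept their direction against Control in both antibiotic groups. Cxcr3 in PAT1 was at 0.21 among males and -0.18 among females. Cxcl11 was higher in PAT3 by 1.55 among males and 0.91 among females, and Cxcl9 differed in PAT1 by -1.06 among males and -1.72 among females.

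The ligands were then compared within each group, where the deviations of single mice were not used in the choice of genes. Over the 6 pairs of members and 3 groups, 18 relations were tested by permutation of the pairings, and none passed after Benjamini-Hochberg adjustment. The highest was that of Cxcl9 with Cxcl10 among Control mice (n = 7, Pearson r = 0.93, exact permutation p = 0.00496, adjusted 0.0893, and Spearman rho = 0.93, exact permutation p = 0.00675, adjusted 0.121). Without the 2 mice farthest from the median of Cxcl9, r was 0.92. In PAT1 the values were r = 0.80 (n = 7, exact permutation p = 0.0244, adjusted 0.220) and rho = 0.71 (exact permutation p = 0.0881, adjusted 0.493), and r was 0.85 without the 2 farthest mice. Males and females were pooled in these correlations. PAT1 males had higher means than PAT1 females for Cxcl9 (7.60 against 6.59) and Cxcl10 (6.46 against 5.87). The part of sex in this relation was not tested. In PAT3 r was 0.010 (n = 10, permutation p = 0.982) and rho 0.0061 (permutation p = 1.0), in a group where Cxcl10 spanned only 5.84 to 6.44. The difference in r between the groups was not tested.

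Cxcl11 had no relation to another ligand that passed. Against Cxcl9 its r was -0.63 in Control (n = 7, exact permutation p = 0.140, adjusted 0.454), -0.53 in PAT1 (n = 7, exact permutation p = 0.228, adjusted 0.455) and 0.093 in PAT3 (n = 10, permutation p = 0.795, adjusted 0.842), with rho of -0.54, -0.68 and 0.18 (adjusted p of 0.530, 0.493 and 0.709 by the same permutations). Control replicates 3 and 7, with Cxcl11 at 5.10 and 5.46, had Cxcl9 at 8.19 and 8.02, against 8.69 in replicate 4, where Cxcl11 was 4.08. The relation of Cxcl9 to Cxcr3 in Control (n = 7, r = -0.74, exact permutation p = 0.0433, adjusted 0.260) did not pass after adjustment either (rho = -0.71, exact permutation p = 0.0881).

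**Figure D4:**
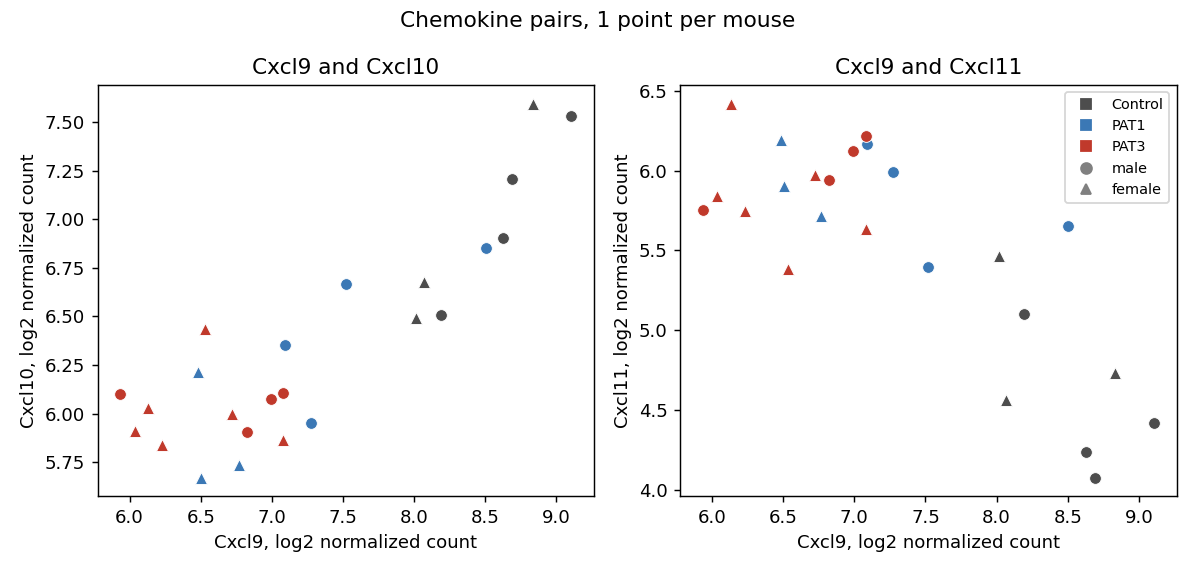
Cxcl10 (left) and Cxcl11 (right) against Cxcl9, all as log2 normalized counts, with 1 point per mouse coloured by group, males as circles and females as triangles. Cxcl10 had r with Cxcl9 of 0.93 among Control mice, 0.80 among PAT1 mice and 0.010 among PAT3 mice, and the antibiotic groups lie higher for Cxcl11 and lower for Cxcl9 than Control.

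For each member, the 3 panel genes with the closest pattern were found after the group means were removed, over 24 mice. All values of a mouse share its tissue piece, size factor and depth, so these correlations are a description. Cxcl9 was nearest to Fcgr4 (r = 0.76), an activating Fc receptor of monocytes and macrophages, Ccl12 (r = 0.76), a monocyte-attracting chemokine, and Il2rb (r = 0.74), the IL-2 and IL-15 receptor chain of cytotoxic lymphocytes. The summed macrophage and dendritic cell markers, described below, had r of only 0.19 with Cxcl9. Cxcl10 was nearest to Cxcl1 (r = 0.65), a neutrophil chemokine, Cxcl9 (r = 0.65) and Ccl12 (r = 0.64). Within groups these relations were uneven, as Cxcl9 with Il2rb had 0.26 in Control and 0.89 in PAT1, and Cxcl10 with Ccl12 had 0.81 in Control and -0.11 in PAT3. Cxcr3 was nearest to Ccl4 (r = 0.61), a chemokine made by T and natural killer cells and macrophages, and to the natural killer receptors Klrc2 (r = 0.57) and Klra7 (r = 0.55), although Klrc2 had 0.077 in Control alone and Klra7 0.10 in PAT1 alone. These neighbours were scarce, with group median counts of 13 to 26 for Ccl4, 11 to 15 for Klrc2 and 9 to 16 for Klra7. With the size factor, r was -0.43 for Cxcr3, -0.37 for Cxcl9, -0.20 for Cxcl10 and 0.28 for Cxcl11.

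Cxcl11 had other neighbours. They were Tbx21 (r = 0.71), which encodes the type 1 transcription factor T-bet, Ifnar1 (r = 0.71), a chain of the type I interferon receptor, and Irf1 (r = 0.70), an interferon-induced transcription factor. Each of these 3 relations was positive within Control, PAT1 and PAT3 taken alone, from 0.67 to 0.87. Across all mice with the group means left in, however, r was 0.79 for Ifnar1 but -0.38 for Tbx21 and -0.39 for Irf1, and both of these were lower after antibiotic while Cxcl11 was higher. Cxcl9 had r of -0.57 with Tbx21 and -0.51 with Irf1, and Cxcl10 had -0.53 and -0.46. Dpp4, the brush border peptidase that trims the N-terminus of Cxcr3 ligand proteins, had r of 0.63 with Cxcl11, -0.53 with Cxcl9 and -0.59 with Cxcl10. For Cxcl11, RefSeq lists no protein in this strain.

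The same contrast was seen beside the summed markers of enterocytes (Abcb1a, Dpp4, Ccl25, Ceacam1 and Btnl1). After removal of group means, the summed level had r of 0.64 with Cxcl11, -0.46 with Cxcl9, -0.57 with Cxcl10 and -0.070 with Cxcr3 over 24 mice. Between groups, however, this sum overlapped widely, at 36584 to 69874 normalized counts in Control (median 60602), 30843 to 69680 in PAT1 (median 60618) and 22599 to 69171 in PAT3 (median 58424). Of the 5 enterocyte markers, 2 were called higher and 1 lower in each antibiotic group. The part of tissue make-up in the differences of the ligands was not tested.

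The genes around the Cxcr3 axis were described by lists written with earlier results known, and the calls below are limma's at an adjusted p under 0.05 over all 547 genes. In PAT1, 7.31% of the panel was called higher than Control and 11.2% lower. The shares for PAT3 were 13.9% and 17.9%. The median difference of all genes was 0.0099 in PAT1 and 0.033 in PAT3. Both contrasts share the Control mice.

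At the top of the pathway, Ifng itself, the cytokine that induces Cxcl9, was scarce and was not called. Control mice had a mean of 3.41 ± 0.67 (SD, n = 7), PAT1 mice of 3.26 ± 0.40 (SD, n = 7) and PAT3 mice of 2.85 ± 0.42 (SD, n = 10), from a median of 10 counts or fewer in each group. The differences from Control were -0.15 (adjusted p = 0.732) and -0.55 (adjusted p = 0.0746). Of the 8 genes of interferon gamma and its receptor signal, the call went to 2 higher and 2 lower after 1 course and to 2 higher and 3 lower after 3. The receptor chains were the ones that rose, Ifngr1 by 0.57 in PAT1 and 0.58 in PAT3 and Ifngr2 by 0.96 and 0.61. Irf1 fell in both groups (-0.66 and -0.63), but after re-centring its PAT1 call was lost (adjusted p = 0.0527). Re-centring left 1 gene of the list called lower in PAT1 and brought the called higher in PAT3 to 4. Socs1, a feedback inhibitor induced by the same signal, was called lower in PAT3 (-0.84, adjusted p = 0.000877) and was at -0.54 in PAT1 (adjusted p = 0.0512).

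Among 13 other genes known to be induced by interferon gamma, 6 were called lower in PAT1 and 7 in PAT3, and 0 higher in either, by limma, where 7 and 8 were lower and 0 higher at an unadjusted p under 0.05, beside 15.5% and 22.5% of all genes lower and 13.2% and 21.2% higher at that level. After quantile normalization 1 was called higher in PAT1. The median difference of the list was -0.44 in PAT1 and -0.52 in PAT3. Its highest differences were 0.18 in PAT1 and -0.049 in PAT3, so some genes not called lay above Control in PAT1. Nos2, the inducible nitric oxide synthase, had the lowest values of the list at -2.43 (SE 0.29, adjusted p = 2.26e-06) and -3.05 (SE 0.26, adjusted p = 3.11e-09), from 9.31 ± 0.72 (SD, n = 7) in Control to 6.27 ± 0.46 (SD, n = 10) in PAT3, with no overlap. Ciita, the master regulator of MHC class II genes, changed by -1.22 in PAT1 and -1.67 in PAT3, and Cd74, the invariant chain it controls, changed by -1.55 and -1.85, the former not called after quantile normalization (adjusted p = 0.0548). Cd274, which encodes the checkpoint ligand PD-L1, changed by -1.33 and -1.46, and the peptide transporter Tap1 by -0.80 and -1.24. Cxcl9 and Cxcl10 were thus lower in the same groups as most of the called genes of this list.

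The genes of type I interferon signalling and of the response element gave no gene that was called lower. Of 15, 3 were called higher in PAT1 and 5 in PAT3, with list medians of 0.14 and 0.21, although by the methods' test of analysis of variance with Tukey's comparison 0 and 3 were called higher. The differences of the list ran from -0.39 to 1.38 in PAT1 and from -0.42 to 0.92 in PAT3. Genes that were not called thus lay on both sides of Control. Irf7, the transcription factor that amplifies type I interferon, was at 1.38 in PAT1 (SE 0.41, adjusted p = 0.0153) and at 0.47 in PAT3 (SE 0.37, adjusted p = 0.353). Its PAT1 call was lost by the methods' test (adjusted p = 0.0760) and in a fit adjusted for size factor (adjusted p = 0.0606). Ifna1, measured at a median of 7 counts in Control, was at 1.19 (adjusted p = 0.0211) and 0.92 (adjusted p = 0.0399), and the interferon-induced gene Ifi35 at 0.65 (adjusted p = 0.0495) in PAT1 and 0.21 (adjusted p = 0.466) in PAT3. The PAT1 call of Ifna1 was lost without PAT1 replicate 1 or Control replicate 2 or 7 and its PAT3 call without any of 9 of the 24 mice (adjusted p up to 0.109), and that of Ifi35 without any of 15 (adjusted p up to 0.124). In the limma fit adjusted for size factor the PAT1 calls of Ifna1 (adjusted p = 0.0815) and Ifi35 (adjusted p = 0.163) were lost too. With sample weights they were also lost (adjusted p = 0.138 and 0.0722). In PAT3 the calls were completed by Ifnar1 (0.35), Ifnar2 (0.28), Irf3 (0.48) and Mx1 (0.42). The call of Ifnar1 was lost without Control replicate 1, 4 or 6, that of Ifnar2 without any of 12 mice and that of Mx1 without any of 13.

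Of 13 genes of NF-kB and TNF input, 4 were called in PAT1 (2 higher, 2 lower) and 7 in PAT3 (5 higher, 2 lower). Relb, a subunit of the non-canonical NF-kB pathway, rose by 1.20 in PAT1 (adjusted p = 0.000310) and 0.83 in PAT3 (adjusted p = 0.00167), and the adaptor Traf2 by 0.36 and 0.31, calls that were lost without any of 6 mice in PAT1 (adjusted p up to 0.0732) and any of 5 in PAT3. Nfkbiz, an atypical inhibitor protein induced by Toll-like receptor and IL-1 signals, changed by -1.24 (adjusted p = 2.85e-05) and -0.997 (adjusted p = 3.70e-05), and the cytokine Il1b by -0.74 (adjusted p = 0.0172) and -0.78 (adjusted p = 0.00467). Without Control replicate 2 or 4 the PAT1 call of Il1b was lost (adjusted p up to 0.0513), as it was after re-centring (adjusted p = 0.0540). Of 10 genes of IL-12 and IL-18 input to interferon gamma, 1 was called in PAT1, as higher, and 5 in PAT3 (2 higher, 3 lower). Il15, which sustains cytotoxic lymphocytes, rose by 1.21 and 0.96. Il18 was at -0.69 in PAT1 (adjusted p = 0.0525) and -1.05 in PAT3 (adjusted p = 0.00106), and Il12rb2 at -0.30 (adjusted p = 0.430) and -0.79 (adjusted p = 0.00727).

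Cells that can carry Cxcr3 were described by 14 genes of type 1 and cytotoxic lymphocytes, of which 8 were called lower in PAT1 and 11 in PAT3, and 0 higher. After re-centring, 5 were called lower in PAT1. The list median was -0.63 in PAT1 and -0.84 in PAT3, beside 0.046 and -0.44 for Cxcr3. The granzymes Gzma and Gzmb changed by -1.52 and -1.62 in PAT1 and by -2.52 and -2.33 in PAT3. Ccl5, a chemokine of activated T cells, changed by -1.32 and -1.97, Cd8a, a chain of the CD8 coreceptor, by -0.94 and -1.84, and Xcl1, a chemokine of cytotoxic lymphocytes, by -0.70 and -1.22. Without Control replicate 2 the PAT1 call of Xcl1 was lost (adjusted p = 0.0509), as it was after re-centring (adjusted p = 0.0813). Tbx21, which drives expression of Cxcr3 in T cells, changed by -0.65 (adjusted p = 0.00422) and -0.60 (adjusted p = 0.00230), and both calls were lost after re-centring (adjusted p = 0.0659 and 0.0611). Between the antibiotic groups 2 of these 14 genes were called, both lower in PAT3, namely Cd8a (-0.90, adjusted p = 0.0401) and Il2rb (-0.53, adjusted p = 0.0401), and each of these calls was lost without any of 12 mice (adjusted p up to 0.135) and by the methods' test (adjusted p = 0.156).

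Of 7 T cell markers measured (Cd3d, Cd3e, Cd2, Lck and others), 2 were called lower in PAT1 and 6 in PAT3. Their summed level was 646 to 819 normalized counts in Control, 375 to 904 in PAT1 and 244 to 460 in PAT3, and none had a median of 0 counts in any group. After removal of group means, this sum had r of 0.44 with Cxcl9, 0.063 with Cxcl10, -0.19 with Cxcl11 and 0.22 with Cxcr3 over 24 mice. Of 6 macrophage and dendritic cell markers, 2 were called lower in each antibiotic group, with sums of 1591 to 2402 in Control, 1336 to 1638 in PAT1 and 1473 to 1936 in PAT3. After removal of group means, this sum had r of 0.19 with Cxcl9, 0.33 with Cxcl10, -0.17 with Cxcl11 and -0.24 with Cxcr3. The part of these markers in the lower Cxcl9 and Cxcl10 was not tested. B cell markers had 0 of 8 called in PAT1 and 1 lower in PAT3, but their sum reached 4640 in 1 PAT1 mouse against 830 at most in Control. The B cell sum had r of 0.35 with Cxcl9, 0.052 with Cxcl10, -0.28 with Cxcl11 and -0.046 with Cxcr3. Stromal and endothelial markers had 0 of 6 called in PAT1 and 2 higher in PAT3. Their sum had r of -0.40 with Cxcl9, -0.026 with Cxcl10, -0.082 with Cxcl11 and -0.48 with Cxcr3.

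Of 9 other CXC chemokines and receptors, 0 were called in PAT1 by limma, with 1 higher and 1 lower at an unadjusted p under 0.05 and the same counts by voom after adjustment. In PAT3 Cxcl1 was called lower (-0.88, adjusted p = 0.00896) and Cxcl12, the stromal ligand of Cxcr4, higher (0.40, adjusted p = 0.0238), the latter not without Control replicate 1, 6 or 7 (adjusted p up to 0.0633) or after quantile normalization (adjusted p = 0.151). In PAT3 2 of these genes were called lower by quantile normalization and by voom. In PAT1 these genes were at -0.71 (adjusted p = 0.0707) and 0.22 (adjusted p = 0.341). Dpp4 was not called in either group, at 0.35 (adjusted p = 0.557) and 0.36 (adjusted p = 0.430), with a spread between mice of 0.75 (SD, n = 7) in Control. Over all 83 listed genes in the table, 26 were called in PAT1 (8 higher, 18 lower) and 42 in PAT3 (15 higher, 27 lower).

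**Figure D5:**
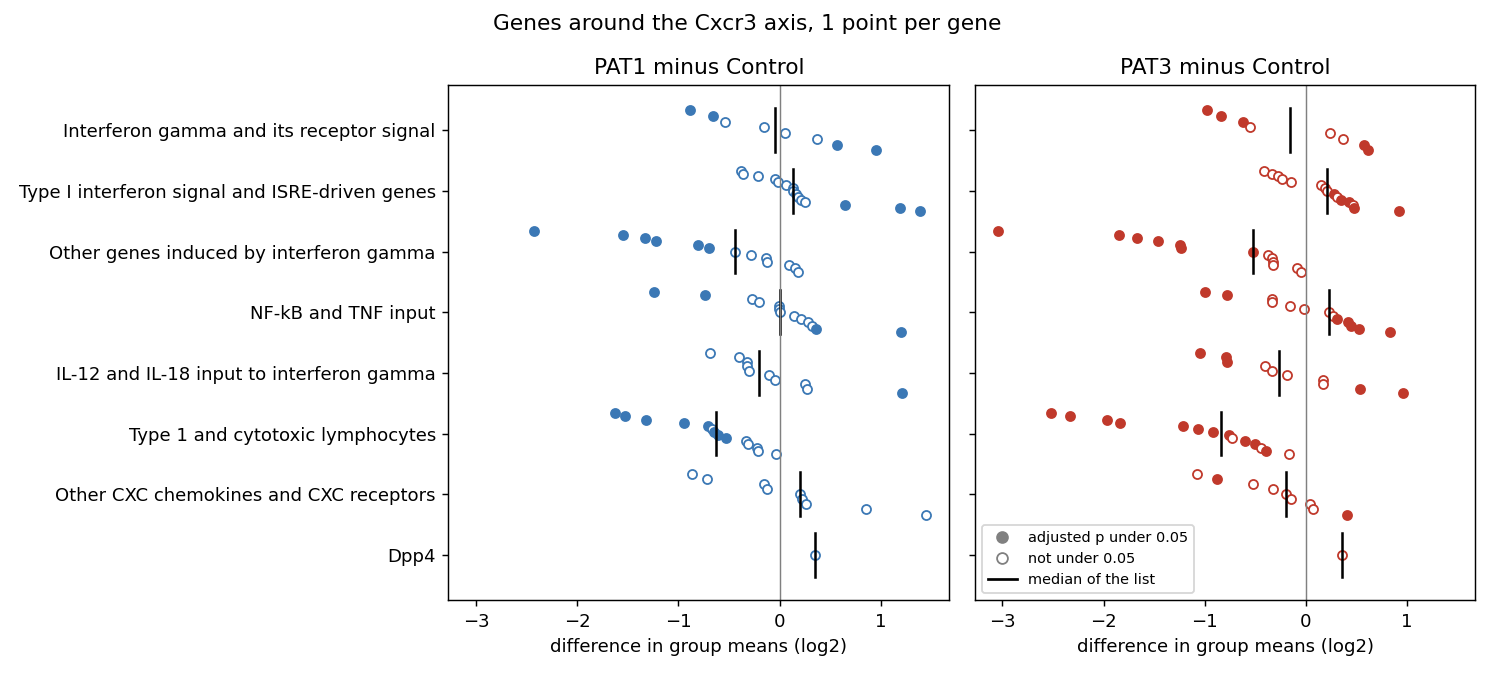
Difference from Control (x axis, log2) of each gene in the lists around the Cxcr3 axis (y axis), for PAT1 on the left and PAT3 on the right, with filled points for an adjusted p under 0.05 and a black line at the median of each list. Genes of type 1 and cytotoxic lymphocytes lay to the left of 0 in both groups, as did genes induced by interferon gamma in PAT3. In PAT1 some genes induced by interferon gamma lay to the right, up to 0.18. Both lists had 0 called higher, and type I interferon genes had 0 called lower.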

How the data were processed

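RNA from the terminal ileum was counted on the panel, and the authors normalized the counts with DESeq2, took log2 and deposited 1 log2 value for each of 547 genes in 24 samples. The labels name TRIzol with an RNeasy column and the methods a miRNeasy kit. The deposited log2 values were used as given. Undoing the log2 and a size factor estimated from each sample's own values gave whole counts for 100% of the values not listed as 0 (tolerance 0.01 counts). Of 13128 values, 19 were listed as 0 and taken as 0 counts. The counts were used for depth, counting error and a count-based alternative. No pair of samples agreed within sampling noise, the lowest chi-square per degree of freedom of 87 pairs within groups being 4.28. Values for control probes were not used here.

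The main fit was limma 3.58.1 (lmFit and eBayes, R 4.3.3) on the 3 groups without covariates, with Benjamini-Hochberg adjustment over 547 genes. On simulated data of the same size it recovered the changes put in. Sex was tested with treatment as a covariate, and treatment by sex by an F test. Correlations used exact permutation of pairings (100000 resamples for the group of 10, SciPy 1.17.1), two-sided. Spread is between mice, and counting error covers counting only.

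The members and all lists were chosen with earlier results of these data known. Besides the members, the named genes were Ifng, Irf1, Irf7, Tbx21 and Dpp4, up to 3 genes per list with the largest difference in PAT3 and up to 2 more in PAT1 among those called, and the 3 nearest genes of each member. Ifnar2 was named in addition, after its value was seen, and 1 further gene is not reported here. Alternatives were the methods' test (analysis of variance with Tukey's comparison), re-centring on the median, quantile normalization, log2 CPM (counts scaled to the sample total) with a pseudocount of 1, voom on the recovered counts, the size factor or sex as a covariate, sample weights, each sex alone, a minimum mean log2 of 5, and leaving out each mouse.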

Additional observations from a re-analysis of the deposited data

Results flagged for a closer look

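Cxcl10 in PAT3 replicate 5, a female, was set apart from the other mice of its group. Its log2 value was 6.44, while the other 9 PAT3 mice lay between 5.84 and 6.11. The gap was 0.55 of the range of the group, above Dixon's critical value of 0.466 for 10 values. The same mouse had the lowest Cxcl11 of PAT3, at 5.39. Over 4 members and 3 groups, 12 sets of values were examined, and chance alone sets apart about 1 in 20. Without it the difference of Cxcl10 between PAT3 and PAT1 was -0.23 in place of -0.18.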

How the results depend on the processing

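The 8 differences of the members from Control stayed within 1 SD of the values given under all alternatives, although that of Cxcr3 in PAT1 changed sign in 6 of 34. Of 12 tested contrasts under 281 alternatives in all, 275 kept their direction and their side of the threshold. With sample weights the female minus male difference of Cxcl9, -0.57, passed (adjusted p = 0.0291), within a range of adjusted p of 0.0291 to 0.503 over its alternatives. The sample weights for the treatment by sex test, though not those for sex, stopped short of convergence. Cxcl10 in PAT3 minus PAT1 was 0.14 among females alone. Cxcl11 in PAT3 minus PAT1, near 0 throughout, was -0.032 with the size factor as a covariate and -0.10 among females, and leaving out single mice gave -0.033 to 0.10. For the causes of these changes no test was made. Correlations that changed sign, none of them past the threshold, were after re-centring Cxcl9 with Cxcl10 (-0.37) and with Cxcl11 (-0.021) in PAT3, and in PAT1 Cxcl10 with Cxcl11 (0.15) and Cxcl11 with Cxcr3 (0.068). With CPM they were Cxcl9 with Cxcr3 in PAT3 (0.036) and Cxcl11 with Cxcr3 in Control (-0.13). Without the 2 farthest mice of PAT3 they were Cxcl9 with Cxcl10 (-0.030), Cxcl11 (-0.053) and Cxcr3 (0.16), and Cxcl10 with Cxcl11 (0.52) and Cxcr3 (-0.49). Over all lists, genes called higher in PAT1 went from 8 to 5 with the methods' test, and 16 of the other counts per list moved by over 1.5 times. Cxcl11 in Control (14 to 46 counts) and Cxcr3 in all groups (12 to 48 counts) are the values that depth limits most. No paired analysis was possible because the labels carry no replicate numbers, and those used here only name the mice of a group in accession order.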
